A study of Mus musculus with 24 samples.

Results

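The comparison was between livers of mice fed 0.5% quercetin and livers of mice fed 0.1% quercetin, with 6 mice and 6 arrays on each side, out of 24 arrays in the series. The arrays were chosen by the diet named in their labels. All mice were male BALB/c, bought at 6 weeks of age, and none carried an engineered allele according to the labels. They ate a nonpurified diet for 7 days and then AIN93G, a purified rodent diet, with 0.1% or 0.5% quercetin for 14 days, and the control and 1.0% groups shared everything but the dose. Mice were kept 3 to a cage in a dark period that fell in the daytime. The sources used here name neither the cage of each mouse nor the hour of killing. Whether cage or hour differed between the diets is therefore not known, and neither can be told apart from dose here. The fit described below treated the mice as independent. Total RNA of each liver was labelled with biotin and hybridized to 1 Affymetrix mouse array. Levels below are quantile-normalized log2(intensity + 1) values, and differences are 0.5% minus 0.1% on that scale, with the standard error (SE) of a limma fit over all 24 arrays. A gene passed when its Benjamini-Hochberg adjusted p over 18193 genes was under 0.05. In whole liver, fewer cells of a type and less RNA per cell cannot be told apart.

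Quercetin is a plant flavonol that the gut and liver quickly convert to glucuronides, sulfates and methylated forms. The liver adjusts many transcripts to feeding, hormones and the time of day. Proteins of the circadian clock switch their targets on and off over the day, growth hormone acts through STAT5 and is checked by SOCS proteins, and glucocorticoids and cytokines act through their own transcription factors. Cells that accumulate unfolded proteins raise chaperone transcripts through the heat shock factor in the cytosol and through XBP1 and ATF6 in the endoplasmic reticulum.

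The arrays of both groups had similar overall signal. Deposited array medians ran from 5.68 to 7.38 at 0.1% and from 5.79 to 6.99 at 0.5%, and before normalization the median of all genes differed by 0.03. Correlations between arrays lay between 0.92 and 0.953, so no pair was a copy. Summed levels of 13 measured hepatocyte markers ran from 82480 to 85240 at 0.1% and from 82930 to 85560 at 0.5% on the linear scale, and none of them passed. Replicates 4 and 6 of the 0.5% group stood apart on the first principal component, at 51.4 and 64.2, while the other 0.5% arrays lay between -8.37 and 0.374 and the 0.1% arrays between -20.6 and -12.6. Values without these 2 arrays are given for the named genes that passed, some as a range, and for some other genes and lists. Replicate 1 of the 0.5% group had a high 18S ribosomal RNA signal, at 10.9 on the log2 scale against at most 6.90 in the other 0.5% arrays.

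At 0.5% quercetin 26 genes were higher than at 0.1% and 13 were lower. They included higher transcripts of Alas1 (heme synthesis), Socs2 and Onecut1 (known targets of growth hormone) and Dbp, Tef and Nr1d2 (circadian clock). Hspa8 (a chaperone) and Herpud1 (degradation of misfolded proteins) were higher too. Lower transcripts included the clock repressor Cry1, the glycogen regulator Ppp1r3c and the cytokine-induced Tnfaip2. The 39 genes were 0.214% of the genes tested, with 0.143% higher and 0.0715% lower. Their differences ran from 0.50 to 3.06 in size. Of the 39, 3 had clone names (D230025D16Rik and Gm16794 higher, C730049O14Rik lower) and 4 were dim, with a mean level under 4 in both groups. The groups did not overlap for 33 of the 39 genes, 22 higher and 11 lower, against 226 of all genes tested (1.24%, with 0.561% higher and 0.682% lower). The 39 genes passed on these same values, which favours separate groups, so this contrast is a description and not a test. Without normalization between arrays the split was 19 higher and 2 lower, and with arrays centred on their medians 45 higher and 4 lower. An unadjusted p under 0.05 was reached by 1834 genes, 10.1% of those tested, 793 higher and 1041 lower. Whatever their p, 8241 of all genes tested lay higher and 9951 lower, the background for the counts of list members below.

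The number of genes passing moved strongly with single arrays. Leaving out 1 array of the 0.1% group gave 6 genes (replicate 1), 4 (replicate 2), 6 (replicate 3), 39 (replicate 4, 29 of them among the 39 above), 7 (replicate 5) or 4 (replicate 6). Leaving out 1 of the 0.5% arrays gave 22 (replicate 1), 59 (replicate 2), 62 (replicate 3), 10 (replicate 4), 6 (replicate 5) or 10 (replicate 6). Arid5b, Alas1, Klf9 and Tnfaip2 passed in each of the 24 fits that left out 1 array, and they were the 4 of 36 named genes that did. The other 32 lost their calls without replicate 1, 2 or 6 of the 0.1% group, and 31 of them, all but Mcm10, also without replicate 3 or 5 of that group or replicate 5 of the 0.5% group. Without both 0.5% arrays that stood apart, 13 genes passed, 11 of them among the 39, and all 39 kept their sign. These 11 were Arid5b, Alas1, Klf9, Tnfaip2, Mcm10, Tef, Dbp, Klf10, Slc25a30, Ppp1r3c and D230025D16Rik. All 39 also had the same sign in replicates 1 to 3 and in replicates 4 to 6 taken separately. The genes were chosen on these same arrays, so agreement in sign is a description and not a test. Sizes in replicates 1 to 3 and 4 to 6 were unequal for some genes, as Cry1 (-0.36 and -1.45). For others they were near equal, as Hspa8 (1.08 and 1.10). A limma test of the difference between these sets passed 0 genes, with 1158 at an unadjusted p under 0.05.

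**Figure D1:**
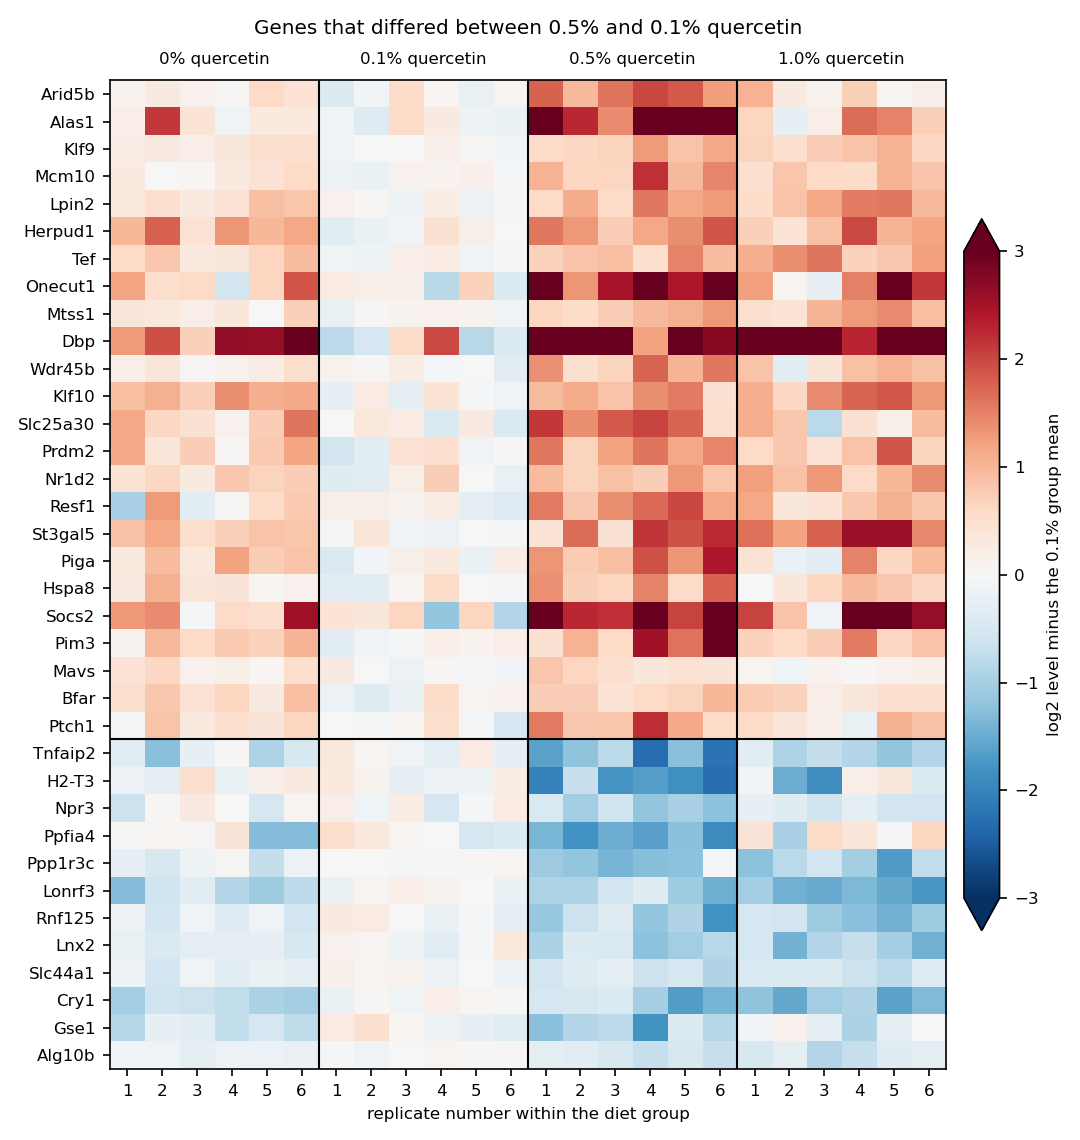
Log2 level of the 36 named genes that passed, minus the mean of the 0.1% group, by array (columns, 6 replicates in each of 4 diet groups); the black horizontal line separates the 24 higher from the 12 lower genes, and colours saturate beyond 3. All 6 of the 0.5% columns lie above the 0.1% mean for the genes above the line and below it for those under the line, by little for Ppp1r3c in replicate 6 (9.77 against a mean of 9.81).

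Alas1, the rate-limiting enzyme of hepatic heme synthesis, rose 6.90-fold. Its level was 6.92 at the lowest, 7.19 at the median and 7.86 at the highest in the 0.1% arrays, and 8.73, 10.42 and 10.79 in the 0.5% arrays. No 0.5% array came near the 0.1% range (difference 2.79, SE 0.39, limma adjusted p = 0.00232). Mean levels were 7.85 ± 0.80 in control and 8.06 ± 0.74 at 1.0% (SD, n = 6 each), so the 0.5% group also lay above both of these means. A second, dimmer probe set of Alas1 differed by 1.62 and passed when each probe set was tested on its own. Alas1 was the sole member of the heme list to pass among 14 measured. The other enzymes of the pathway differed little, from -0.21 for Ppox to 0.08 for Cpox, and Hmox1, which breaks heme down, differed by 0.47 (adjusted p = 0.428). Without replicates 4 and 6 of the 0.5% group Alas1 differed by 2.48 (adjusted p = 0.0275). Ppox and Cpox are named after their values were seen.

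Arid5b, a DNA-binding protein that works with the histone demethylase PHF2, had the smallest p of all genes. Its level ran from 5.66 over a median of 6.06 to 6.61 at 0.1%, and from 7.04 over 7.76 to 8.06 at 0.5%. The groups were separate, and the rise was 2.98-fold (difference 1.58, SE 0.20, limma adjusted p = 0.00113). Its mean was 6.33 ± 0.22 in control and 6.46 ± 0.40 at 1.0% (SD, n = 6 each). Slc25a30, a mitochondrial inner membrane carrier, rose by 1.61 (SE 0.31, adjusted p = 0.0306), from a range of 7.61 to 8.35 to a range of 8.56 to 10.15. Its mean was 8.82 in control and 8.48 at 1.0%, so for Slc25a30 as for Alas1 and Arid5b the 0.5% group had the highest mean of the 4 diets. Slc25a30 lost its call without replicate 4 of the 0.5% group (adjusted p = 0.0976). Without both replicates 4 and 6 it differed by 1.77 (adjusted p = 0.0407) and Arid5b by 1.55 (adjusted p = 0.00716).

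**Figure D2:**
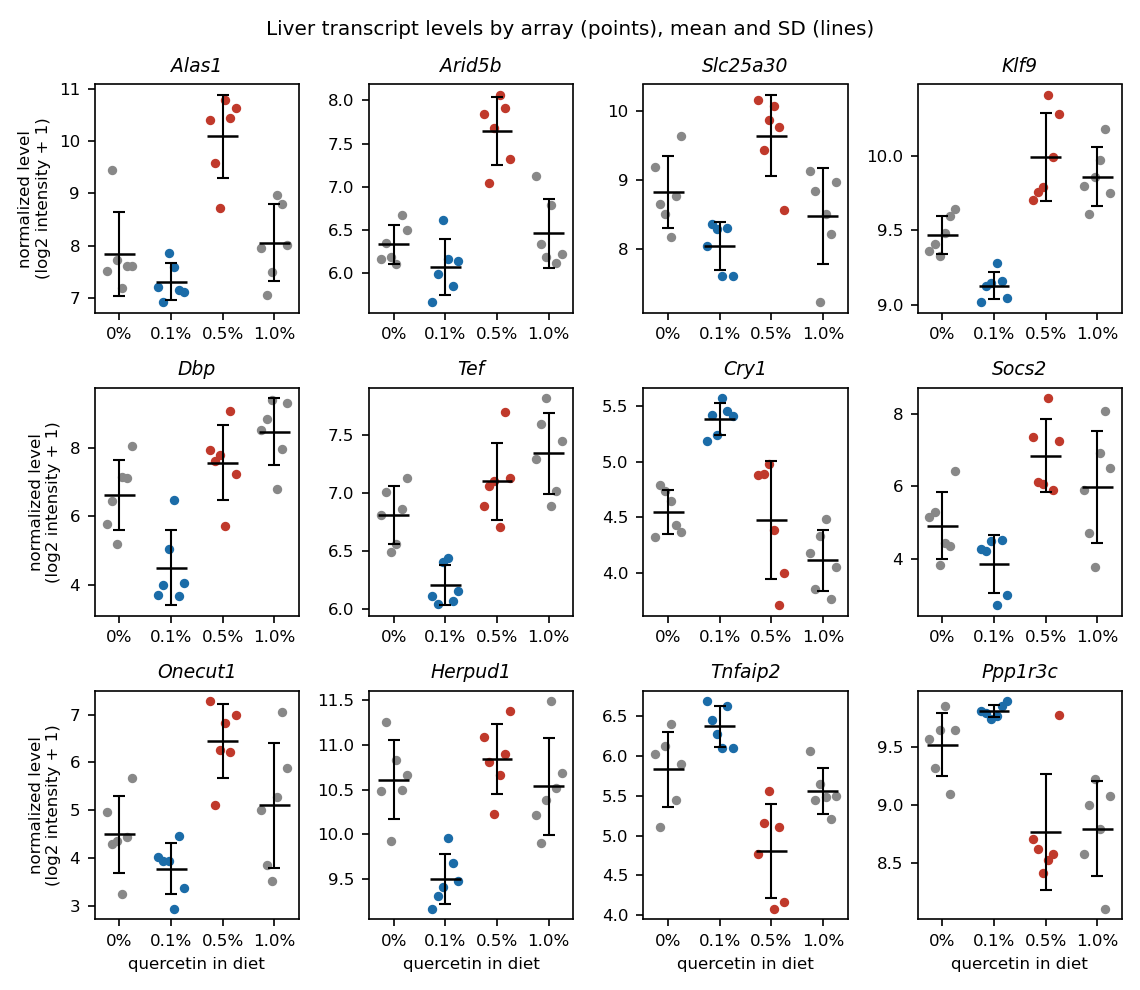
Normalized log2(intensity + 1) level of 12 genes that passed, by array (points), with the mean (bar) and SD (whisker) of the 6 arrays of each diet; grey points are the control (0%) and 1.0% groups, blue 0.1% and red 0.5%. Alas1, Arid5b and Slc25a30 are highest at 0.5%, Dbp and Tef are highest at 1.0%, and 1 of the 0.5% arrays of Ppp1r3c lies within the 0.1% range.

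Among 23 measured genes of the circadian clock, Dbp, Tef and Nr1d2 rose and Cry1 fell, and 16 lay higher and 7 lower. Dbp and Tef encode PAR bZIP transcription factors, rhythmic outputs of the clock. Nr1d2 encodes REV-ERB beta, a repressor of the positive limb, and Cry1 encodes a repressor of the CLOCK and BMAL1 pair. That pair binds the E-box CACGTG, which reads the same on both strands. It occurred in 7.15% of 32851 RefSeq promoter windows of 300 bases (250 before to 50 after the start, assembly GRCm38.p6). Of the genes that passed, 7 of 31 with a window held it (22.6%, against 10.2% of tested genes with a window): Tef, Cry1, Lpin2, Onecut1, Lonrf3, Ppfia4 and Ppp1r3c. In all, 6 motifs were searched. Of the same 31 genes, 2 held the D-box TTANNTAA (6.45%, against 5.11% of tested genes), 4 a GAS element (12.9% against 8.57%) and 1 a heat shock element (3.23%, against 2171 of 14452 tested genes). None held an ERSE (0.138% of tested genes) or a CRE, TGACGTCA (2.92%), and none of these shares was tested. The windows of Tef and Cry1 are shown because both genes passed, in opposite directions. They are given 5′ to 3′ on the gene's strand for the 150 bases before the start, with the E-box in capitals, at chr15:81802523-81802672 (plus strand) and chr10:85185055-85185204 (minus strand).
Tef: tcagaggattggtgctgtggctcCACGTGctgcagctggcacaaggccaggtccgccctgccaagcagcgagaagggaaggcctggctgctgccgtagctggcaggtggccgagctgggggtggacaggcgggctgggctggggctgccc
Cry1: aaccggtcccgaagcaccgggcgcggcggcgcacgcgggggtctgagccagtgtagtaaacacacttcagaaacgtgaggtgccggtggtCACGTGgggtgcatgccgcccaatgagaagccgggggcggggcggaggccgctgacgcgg
The first base of the E-box lay 127 bases before the start in Tef and 60 before it in Cry1. A match is a description of these letters and not a measured binding site.

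Dbp had the largest difference of the genes that passed. Its level was 3.68, 4.04 and 6.49 (lowest, median, highest) at 0.1% and 5.71, 7.71 and 9.07 at 0.5%. The groups overlapped, because replicate 4 of the 0.1% group reached 6.49 and replicate 4 of the 0.5% group stayed at 5.71 (difference 3.06, SE 0.58, limma adjusted p = 0.0306). A second probe set of Dbp differed by 2.73. Tef rose by 0.89 (SE 0.17, adjusted p = 0.0306), from 6.05, 6.14 and 6.45 to 6.71, 7.08 and 7.69, with no overlap. Nr1d2 rose by 0.89 (SE 0.17, adjusted p = 0.0306), and its highest 0.1% array, at 8.17, overlapped with its lowest 0.5% array, at 8.12. Cry1 fell by 0.90 (SE 0.19, adjusted p = 0.0449), from 5.18, 5.41 and 5.57 to 3.71, 4.64 and 4.98, with every 0.5% array below every 0.1% array.

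For these clock genes the 0.1% group had the lowest mean of the 4 diets, or for Cry1 the highest. The 0.1% mean was also the lowest for all 26 genes that passed as higher, so this is not particular to the clock. Dbp averaged 6.62 in control, 4.51 at 0.1%, 7.56 at 0.5% and 8.47 at 1.0%. Cry1 averaged 4.55 in control, 5.38 at 0.1%, 4.47 at 0.5% and 4.11 at 1.0%. Tef averaged 6.81, 6.21, 7.10 and 7.34 in the same order. The control mean thus lay between the means of both doses for Dbp, Cry1 and Tef. It did so for 25 of all 26 higher genes and 12 of all 13 lower ones. All were chosen on their 0.1% and 0.5% levels, which favours this order.

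Other clock genes, of which Arntl, Npas2, Nr1d1, Nfil3 and Clock were picked after their values were seen, did not pass. Arntl, which encodes BMAL1, ran from 5.65 to 6.32 at 0.1% and from 3.61 to 5.54 at 0.5%, without overlap (difference -1.19, SE 0.35, adjusted p = 0.212). Npas2, a partner of BMAL1, differed by -1.60 (adjusted p = 0.163) and Nfil3, a repressor of PAR bZIP targets, by -0.54 (adjusted p = 0.322). Per1, a repressor that also responds to glucocorticoids, differed by 2.09 (adjusted p = 0.175) and Nr1d1, which encodes REV-ERB alpha, by 0.64 (adjusted p = 0.286). Clock itself differed by -0.03. The median of the clock list was 0.44, and 0.20 without replicates 4 and 6 of the 0.5% group. In replicates 1 to 3 alone it was 0.002, and in replicates 4 to 6 it was 0.62. The list holds genes that moved in opposite directions, so its median does not measure the size of their changes. In replicates 1 to 3 and 4 to 6, Dbp differed by 3.52 and 2.60 and Nr1d2 by 1.00 and 0.79. Tef differed by 0.83 and 0.95, and Cry1 by -0.36 and -1.45. Dbp lost its call without replicate 2 of the 0.1% group (adjusted p = 0.0852), as did Tef (0.0844) and Nr1d2 (0.0991), and Cry1 lost it without replicate 6 of the 0.5% group (0.13). Without both 0.5% arrays that stood apart, Dbp (3.60, adjusted p = 0.0257) and Tef (0.98, adjusted p = 0.0497) passed, and Nr1d2 (0.95, adjusted p = 0.13) and Cry1 (-0.76, adjusted p = 0.323) did not.

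Among 15 measured genes of growth hormone and STAT5 feedback, Socs2 and Onecut1 rose, none fell, and Cish and Socs3 lay just outside the threshold. Socs2 and Cish encode inhibitors that STAT5 induces after growth hormone, and Onecut1 encodes HNF6, a liver transcription factor that growth hormone also raises. STAT5 binds GAS elements of the form TTCNNNGAA, which are the same on both strands and occurred in 8.3% of the promoter windows and in 4 of 14 list members with a window. These 4 were Bcl6, Cish, Igfals and Socs3, so neither Socs2 nor Onecut1, which passed, was among them. Cish is shown because its first 20 transcribed bases, at chr9:107296659-107296678 (plus strand, GRCm38.p6), held 2 such matches, at positions 1 and 12 from the start, in capitals.
Cish: TTCCTGGAAagTTCTTGGAA
The letters alone do not show that STAT5 bound there in these livers.

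Socs2 was at 2.71, 4.23 and 4.51 (lowest, median, highest) at 0.1% and at 5.89, 6.67 and 8.43 at 0.5%. Every 0.5% array was above every 0.1% array, a rise of 7.90-fold (difference 2.98, SE 0.61, limma adjusted p = 0.043). Onecut1 was at 2.93, 3.93 and 4.46 at 0.1% and at 5.10, 6.54 and 7.28 at 0.5%, again without overlap (difference 2.67, SE 0.50, adjusted p = 0.0306), and its second probe set differed by 3.31. Control means were 4.91 ± 0.91 for Socs2 and 4.49 ± 0.81 for Onecut1 (SD, n = 6). Cish was at 4.25, 4.91 and 6.62 at 0.1% and at 6.81, 7.10 and 7.53 at 0.5%, separate but not passing (difference 2.04, SE 0.46, adjusted p = 0.0597). Socs3, which cytokines of the IL-6 family induce more strongly, differed by 2.19 (SE 0.47, adjusted p = 0.0525), and its groups were separate too.

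The receptor and the endocrine targets of growth hormone did not pass. Ghr, the receptor, differed by -0.07 and Igf1, the main endocrine target, by 0.12 (adjusted p = 0.868 and 0.653). Stat5a differed by -0.67 (adjusted p = 0.148), Stat5b by -0.50 (adjusted p = 0.383) and Bcl6, a repressor that opposes STAT5, by -1.14 (adjusted p = 0.377). The median of the list was 0.14, and 0.07 without replicates 4 and 6 of the 0.5% group. Without these arrays Socs2 differed by 2.49 (limma adjusted p = 0.323) and Onecut1 by 2.44 (adjusted p = 0.207). In the same fit Cish differed by 2.01 (adjusted p = 0.308) and Socs3 by 1.62 (adjusted p = 0.396). Without replicate 4 of the 0.5% group alone the adjusted p was 0.12 for Socs2 and 0.085 for Onecut1. Igf1, Bcl6, Stat5a, Stat5b and Ghr were picked after their values were seen.

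The heat shock list had the highest median of the 30 gene lists. Of its 22 measured members, 21 lay higher at 0.5% and 1 lower, 7 had separate groups, and 1, Hspa8, passed. Of all genes tested, 0.561% had separate groups with 0.5% higher, and 0.143% passed as higher. The list median was 0.81, against -0.03 for all genes, and 0.61 without replicates 4 and 6 of the 0.5% group. It was 0.78 in replicates 1 to 3 and 0.84 in replicates 4 to 6. Heat shock factor binds repeats of GAA in opposite orientation. Searched as GAANNTTC or TTCNNGAA, both the same on either strand, such a pair occurred in 15.1% of the promoter windows and in 12 of 19 list members with a window. Hspa8, the member that passed, was not among these 12. Hsph1 is shown because it lay just outside the threshold with separate groups, for the 150 bases before its start at chr5:149636316-149636465 (minus strand, GRCm38.p6), with the match in capitals, 54 bases before the start.
Hsph1: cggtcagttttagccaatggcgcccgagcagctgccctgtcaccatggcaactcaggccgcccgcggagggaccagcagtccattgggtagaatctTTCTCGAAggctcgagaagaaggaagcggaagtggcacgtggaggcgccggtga
The match is a description of the sequence.

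Hspa8, the constitutive cytosolic HSP70, was at 10.21, 10.52 and 11.08 (lowest, median, highest) at 0.1% and at 11.10, 11.57 and 12.29 at 0.5%. The groups just failed to touch, and the rise was 2.13-fold (difference 1.09, SE 0.22, limma adjusted p = 0.043). Its means were 10.90 ± 0.36 in control and 11.09 ± 0.35 at 1.0% (SD, n = 6 each). Hsph1, the HSP110 exchange factor of HSP70, was at 6.54, 6.81 and 7.59 against 7.92, 8.94 and 10.01 (difference 1.96, SE 0.42, adjusted p = 0.0525). Hspb8, a small heat shock protein, ran from 7.57 to 8.13 and from 8.27 to 9.83, also separate (difference 1.2, SE 0.26, adjusted p = 0.0569). Hspa1b, the stress-induced HSP70, differed by 2.62 (SE 0.65, adjusted p = 0.111) and its near-identical copy Hspa1a by 1.58 (adjusted p = 0.403). The probes of these copies may share transcripts, so their values are uncertain. Hsp90aa1, the inducible HSP90, differed by 1.05 (adjusted p = 0.291) and the mitochondrial chaperonin Hspd1 by 0.31 (adjusted p = 0.418). Hspa8 lost its call without replicate 2 of the 0.1% group (adjusted p = 0.123), and without replicates 4 and 6 of the 0.5% group (difference 0.82, adjusted p = 0.349). Without the same 2 arrays of the 0.5% group Hsph1 differed by 1.56 (limma adjusted p = 0.393) and Hspb8 by 0.80 (adjusted p = 0.396). Dnaja1, Chordc1, Hsp90aa1, Hspa1a and Hspd1 are named after their values were seen, and Dnaja1 and Chordc1, which assist HSP70 and HSP90, differed by 0.93 (adjusted p = 0.12) and 1.10 (adjusted p = 0.192).

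In the unfolded protein response list, 22 of 30 measured members lay higher and 8 lower, 6 had separate groups, and Herpud1 passed. The shares over all genes tested were 0.561% separate with 0.5% higher and 0.143% passing as higher. Herpud1 encodes an endoplasmic reticulum membrane protein that helps to degrade misfolded proteins. It was at 9.17, 9.44 and 9.96 (lowest, median, highest) at 0.1% and at 10.23, 10.86 and 11.38 at 0.5%, separate in all arrays (difference 1.35, SE 0.24, limma adjusted p = 0.0284). Its mean was 10.61 in control and 10.54 at 1.0%, so the 0.1% group, at 9.50, had the lowest mean of the 4 diets. That was so for all 26 genes that passed as higher. The second probe set of Herpud1 differed by 1.22. The stress element ERSE, searched on both strands as CCAAT and CCACG with 9 bases between them, occurred in 0.119% of the promoter windows and in 9 of 27 list members with a window: Calr, Canx, Creld2, Derl3, Dnajc3, Hsp90b1, Hspa5, Pdia6 and Syvn1. Creld2 and Syvn1 are shown because they had the smallest p of these 9. Their 150 bases before the start lie at chr15:88819496-88819645 and chr19:6046426-6046575 (both plus strand, GRCm38.p6), with the element in capitals, in Creld2 on the opposite strand.
Creld2: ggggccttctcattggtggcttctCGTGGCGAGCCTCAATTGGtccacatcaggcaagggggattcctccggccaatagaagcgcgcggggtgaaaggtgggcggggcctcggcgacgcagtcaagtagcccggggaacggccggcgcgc
Syvn1: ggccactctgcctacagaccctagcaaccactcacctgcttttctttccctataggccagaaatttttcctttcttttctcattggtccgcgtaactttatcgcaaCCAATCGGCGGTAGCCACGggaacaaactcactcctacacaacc
The element started 126 bases before the start in Creld2 and 44 before it in Syvn1.

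Neither gene passed. Creld2, a secreted chaperone-like protein, was at 6.77, 7.0 and 7.39 at 0.1% and at 7.81, 8.24 and 10.36 at 0.5% (difference 1.62, SE 0.38, adjusted p = 0.08). Syvn1, the ubiquitin ligase HRD1 that works with HERPUD1, was at 6.66, 6.94 and 7.08 against 7.38, 7.62 and 8.53 (difference 0.88, SE 0.19, adjusted p = 0.0574). Xbp1, the transcription factor of this branch, differed by 0.89 (SE 0.21, adjusted p = 0.0846). The most abundant chaperone, Hspa5 (BiP), had separate groups at a smaller difference of 0.47 (adjusted p = 0.289), while Pdia6, Calr and Atf6 differed by -0.11, -0.03 and -0.03. Among genes of the PERK branch, Atf4 differed by -0.21, Ddit3 by 0.26 and Chac1, which degrades glutathione, by 1.12 (adjusted p = 0.115). Atf3, another of them, was dim and lay higher (limma adjusted p = 0.221). The list median was 0.27, and 0.21 without replicates 4 and 6 of the 0.5% group, where Herpud1 differed by 1.26 (adjusted p = 0.13). Without these 2 arrays Creld2 differed by 1.26 (limma adjusted p = 0.374), Syvn1 by 0.75 (adjusted p = 0.288) and Xbp1 by 0.62 (adjusted p = 0.60). Herpud1 lost its call without replicate 2 of the 0.1% group (adjusted p = 0.0781). Hspa5, Pdia6, Calr, Atf6, Atf4, Ddit3 and Chac1 are named after their values were seen.

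**Figure D3:**
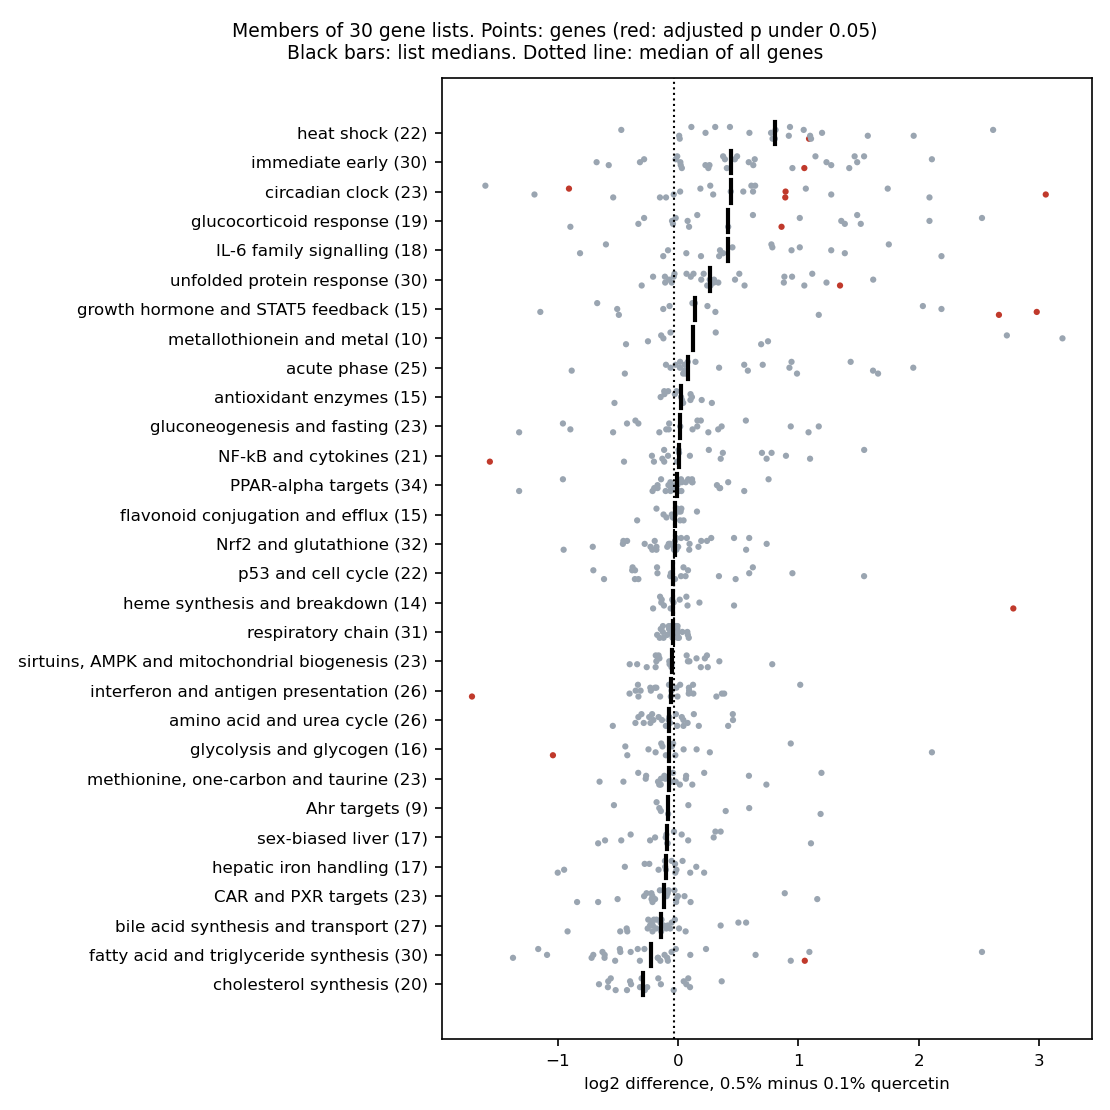
Log2 difference, 0.5% minus 0.1%, of each measured member of 30 gene lists (points, number of members in brackets), with the list median (black bar) and the median of all genes, -0.03 (dotted); red points passed. The heat shock list has the highest median, 0.81, and cholesterol synthesis the lowest, -0.29, and red points are few in each list.

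Klf9 and Klf10, zinc finger transcription factors, rose. Klf9 responds to glucocorticoids and thyroid hormone, and Klf10 is an early response gene of TGF beta. Klf9 was at 9.02, 9.14 and 9.28 (lowest, median, highest) at 0.1% and at 9.70, 9.89 and 10.41 at 0.5%, without overlap (difference 0.86, SE 0.12, limma adjusted p = 0.00232). All 7 of its probe sets were higher and 4 passed on their own. Its means were 9.47 ± 0.13 in control and 9.86 ± 0.20 at 1.0% (SD, n = 6 each). Klf10 ran from 5.26 to 5.93 and from 5.98 to 7.09 (difference 1.05, SE 0.20, adjusted p = 0.0306). It lost its call without replicate 4 of the 0.5% group (adjusted p = 0.0955). Without both replicates 4 and 6 Klf10 differed by 1.12 (adjusted p = 0.0497) and Klf9 by 0.68 (adjusted p = 0.0159).

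Of 19 measured glucocorticoid response genes 13 lay higher, 6 lower, and Klf9 alone passed. In limma 9 of these 19 glucocorticoid response genes had an unadjusted p under 0.05, against 10.1% of all genes tested. Tsc22d3, Sgk1 and Dusp1, widely used readouts of this hormone, differed by -0.04, -0.05 and -0.02. Fkbp5, another such readout, differed by 1.52 (adjusted p = 0.289) and Lpin1, a phosphatidate phosphatase, by 2.53 (adjusted p = 0.213). Per1, Cebpb and G6pc, also on this list, differed by 2.09, 1.39 and -0.89 (limma adjusted p = 0.175, 0.0605 and 0.224). Lpin1 lay at 9.68 and 9.87 in replicates 4 and 6 of the 0.5% group and between 5.57 and 6.76 in the other 4. The list median was 0.42, and 0.27 without these 2 arrays. Tsc22d3, Sgk1, Dusp1 and Fkbp5 are named after their values were seen.

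Cytokine and early response genes were highest in replicates 4 and 6 of the 0.5% group in several cases. Of 30 measured immediate early genes 24 lay higher and Klf10 passed. The list median was 0.44, and 0.08 without these arrays, and it was -0.09 in replicates 1 to 3. Of 18 IL-6 family signalling genes 14 lay higher and 0 passed in limma (9 at an unadjusted p under 0.05), with a median of 0.41, and 0.22 without these arrays. Cebpb, a transcription factor of the acute phase, ran from 7.16 to 7.86 at 0.1% and from 8.07 to 9.94 at 0.5% (difference 1.39, SE 0.31, adjusted p = 0.0605). Its 2 highest values, 9.94 and 9.93, were in replicates 4 and 6. Without these 2 arrays Cebpb differed by 0.86 (limma adjusted p = 0.396). Of 25 acute phase genes 20 lay higher and 0 passed (10 at an unadjusted p under 0.05), with a median of 0.08, and -0.003 without these arrays. Lcn2, an acute phase protein of liver and neutrophils, was at 8.34 and 10.17 in replicates 4 and 6, between 4.49 and 6.23 in the other 0.5% arrays and between 4.13 and 5.58 at 0.1%.

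The metallothioneins Mt1 and Mt2, which bind zinc and copper, varied widely within the 0.5% group. Mt1 was at 12.59 in replicates 4 and 6, at 8.98 in replicate 5 and between 5.07 and 5.91 in replicates 1 to 3, against 4.77 to 6.30 at 0.1%. Mt2 was at 12.01 and 12.03 in replicates 4 and 6, at 8.36 in replicate 5 and between 3.82 and 4.69 in replicates 1 to 3. Neither passed (Mt1 2.73, adjusted p = 0.417; Mt2 3.20, adjusted p = 0.394), and replicates 1 to 3 of the 0.5% group lay within the 0.1% range for both genes. Summed neutrophil markers ran from 105.5 to 134.9 at 0.1% and from 100.8 to 1529 at 0.5% on the linear scale. Lcn2, which the liver also makes, gave 1151 of the highest sum, and without it the sums of the other 11 ran from 81.2 to 116.5 and from 79.3 to 378.3. Of the 12 markers 8 lay higher and 4 lower, with Csf3r, the receptor of G-CSF, at -0.86, and 8 were dim and none passed. Their median difference was 0.25, and 0.01 without replicates 4 and 6. S100a8, a defining neutrophil marker, was at 6.36 and 7.2 in these 2 arrays and at most 4.64 in the other 0.5% arrays. The part of these cells in the values of the cytokine genes was not tested. Of 15 Kupffer cell and macrophage markers 5 lay higher and 10 lower, and all 11 T and NK cell markers were dim.

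**Figure D4:**
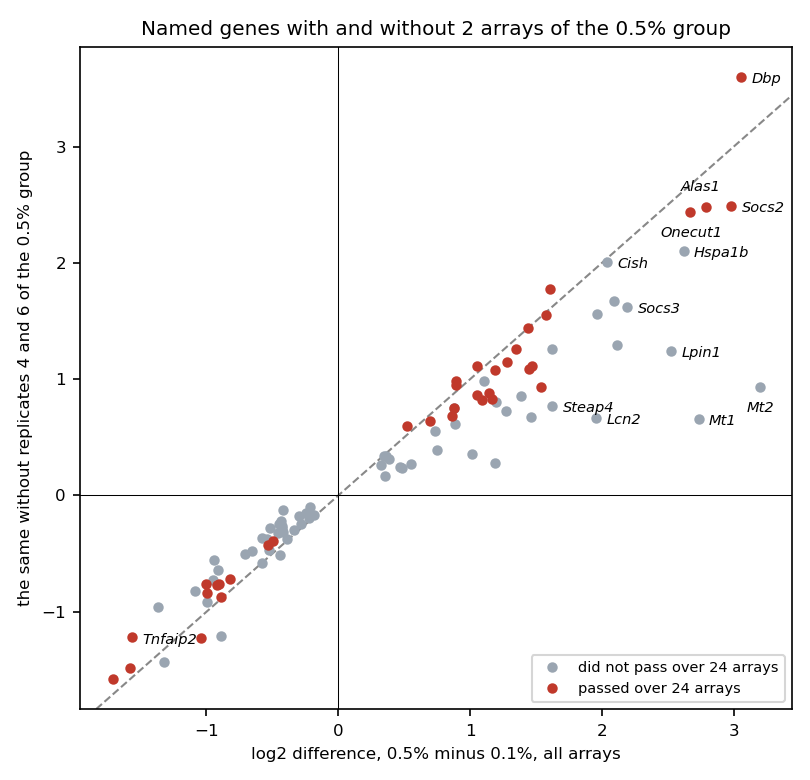
Log2 difference, 0.5% minus 0.1%, of genes named by the rule or chosen after their values were seen, over all arrays (horizontal) and without replicates 4 and 6 of the 0.5% group (vertical); the dashed line marks equal values and red points passed over 24 arrays. Mt1, Mt2, Lcn2 and Lpin1 lie far below the line, while Dbp lies above it and Cish on it.

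Among genes of fat, sugar and sterol metabolism, Lpin2 rose and Ppp1r3c fell. Lpin2 encodes a lipin, a phosphatidate phosphatase of triglyceride synthesis. It was at 6.71, 6.88 and 7.10 (lowest, median, highest) at 0.1% and at 7.47, 8.02 and 8.46 at 0.5%, separate throughout (difference 1.05, SE 0.18, limma adjusted p = 0.0247). Ppp1r3c encodes PTG, which directs protein phosphatase 1 to glycogen. It lay tightly between 9.74 and 9.89 at 0.1% and between 8.41 and 8.71 in 5 of the 0.5% arrays, with replicate 6 at 9.77 (difference -1.04, SE 0.20, adjusted p = 0.0306). Without replicates 4 and 6 of the 0.5% group its difference was -1.23 (adjusted p = 0.00716), and without replicate 4 alone its adjusted p was 0.0976. Lpin2 lost its call without replicates 4 and 6 of the 0.5% group (difference 0.87, adjusted p = 0.157) and without replicate 6 of the 0.1% group (adjusted p = 0.0681).

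Of 30 measured genes of fatty acid and triglyceride synthesis 7 lay higher and 23 lower, and of 20 genes of cholesterol synthesis 5 lay higher and 15 lower. Lpin2 was the single member of these lists to pass, in the direction opposite to most members. Srebf1, the transcription factor that drives fatty acid synthesis, was at 8.27, 8.65 and 8.82 at 0.1% and at 6.17, 7.26 and 8.23 at 0.5%, separate but not passing (difference -1.37, SE 0.34, adjusted p = 0.105). Fasn differed by -1.16 (adjusted p = 0.237), Acly by -1.09 (adjusted p = 0.213) and Acaca by -0.63 (adjusted p = 0.317); these make fatty acids from citrate. Fasn and Acaca are named after their values were seen. Srebf2, which drives cholesterol synthesis, differed by -0.58 (adjusted p = 0.317), and its target Fdps by -0.66 (adjusted p = 0.378). The list medians were -0.22 and -0.29. Without replicates 4 and 6 of the 0.5% group both were -0.09, and Srebf1 differed by -0.96 (limma adjusted p = 0.657). Over all arrays G6pc, the last step of glucose output, differed by -0.89 (adjusted p = 0.224). Pdk4, which spares pyruvate in fasting, differed by -1.32 over all arrays (adjusted p = 0.217).

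Centring arrays on their medians instead of quantile normalization moved the median of all genes from -0.03 to 0.07. Relative to that median the heat shock list stood at 0.92, glucocorticoid response at 0.52, IL-6 signalling at 0.47, immediate early genes at 0.42, the clock at 0.39, the unfolded protein response at 0.36, growth hormone feedback at 0.25, fatty acid synthesis at -0.13 and cholesterol synthesis at -0.20. The signs of these lists did not flip. On the same relative scale bile acid synthesis and transport, with 22 of 27 members lower, stood at -0.05, and the respiratory chain at 0.04. The lists of Nrf2 and glutathione genes, antioxidant enzymes, flavonoid conjugation and efflux, and PPAR-alpha targets had 0 genes passing in limma among 32, 15, 15 and 34 measured (7, 1, 1 and 3 at an unadjusted p under 0.05), with medians from -0.03 to 0.03. Osgin1, an Nrf2 target, came nearest (difference -0.95, SE 0.21, adjusted p = 0.0597).

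Further genes rose that belong to no list. Mcm10, a DNA replication factor, rose by 1.16 (SE 0.20, limma adjusted p = 0.018), from a range of 7.92 to 8.28 to a range of 8.78 to 10.33. Mtss1, a membrane-bending actin regulator, rose by 0.88 and Wdr45b, an autophagy protein that binds phosphoinositides, by 1.14 (adjusted p = 0.0306 each). Prdm2, a PR domain zinc finger protein, rose by 1.28 (adjusted p = 0.0306). The groups of these 4 genes did not overlap. Without replicates 4 and 6 of the 0.5% group Mcm10 passed (difference 0.83, adjusted p = 0.0257), and Mtss1 (0.75, adjusted p = 0.219), Wdr45b (0.88, adjusted p = 0.239) and Prdm2 (1.15, adjusted p = 0.239) did not. Outside the naming rule, and so chosen after their values were seen, 7 more genes rose: St3gal5, the GM3 ganglioside synthase (1.47), Piga, an enzyme of GPI anchor synthesis (1.45), Pim3, a serine/threonine kinase (1.54), Resf1, a retroelement silencing factor (1.44), Ptch1, the Hedgehog receptor (1.19), Bfar, a ubiquitin ligase of the endoplasmic reticulum (0.69), and Mavs, the mitochondrial antiviral adaptor (0.52). Their adjusted p ran from 0.0341 for Resf1 to 0.0489 for Pim3, Mavs, Bfar and Ptch1. Pim3 was at 10.44 and 10.89 in replicates 4 and 6 of the 0.5% group against at most 9.55 in the others, and differed by 0.93 without them (adjusted p = 0.219). None of the other 6 passed without these arrays, with adjusted p from 0.0838 for Mavs to 0.318 for St3gal5.

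Tnfaip2, a gene that TNF induces, had the smallest p of the genes that fell. It was at 6.09, 6.36 and 6.68 (lowest, median, highest) at 0.1% and at 4.08, 4.94 and 5.56 at 0.5%, all 0.5% arrays below all 0.1% arrays. The decrease was 2.95-fold (difference -1.56, SE 0.24, limma adjusted p = 0.00678), with means of 5.83 ± 0.47 in control and 5.56 ± 0.28 at 1.0% (SD, n = 6 each). A second probe set differed by -1.27 and passed on its own, and another, far dimmer one differed by 0.26. Of 21 measured NF-kB and cytokine genes 12 lay higher and 9 lower, and no other passed. Nfkbia, a direct target of this pathway named after its value was seen, differed by 0.26. Tnfaip2 passed without replicates 4 and 6 of the 0.5% group (difference -1.22, adjusted p = 0.041).

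Rnf125, Lnx2, Lonrf3, Slc44a1, Alg10b and Gse1 also fell. Rnf125, a ligase that marks the RNA sensor RIG-I, fell by 1.00 (SE 0.20, limma adjusted p = 0.0341), from a range of 10.54 to 11.07 to a range of 9.0 to 10.41. Lnx2, a ligase that binds the Notch regulator Numb, fell by 0.82 (adjusted p = 0.0341) and Lonrf3, a RING finger protein, by 0.89 (adjusted p = 0.031). Slc44a1, a choline transporter, fell by 0.54 (adjusted p = 0.0431), Alg10b, a glucosyltransferase of N-glycan synthesis, by 0.50 (adjusted p = 0.0489), and Gse1, a coiled-coil protein of the nucleus, by 1.00 (adjusted p = 0.046). The groups of these 6 genes did not overlap. None of the 6 passed without replicates 4 and 6 of the 0.5% group, with adjusted p from 0.0546 for Lonrf3 to 0.374 for Alg10b. H2-T3, a nonclassical MHC class I gene, Npr3, the natriuretic peptide clearance receptor, and Ppfia4, a liprin, were lower as well (adjusted p = 0.0306 each), but all 3 were dim, so no size is given. Without replicates 4 and 6 of the 0.5% group their adjusted p was 0.195, 0.219 and 0.206. In 31 of the 36 named genes a further probe set existed. Of these 68 further probe sets 57 had the same sign, as did all 33 whose mean level was 4 or more. The same sign includes differences near 0, such as -0.04 for a further probe set of Slc44a1 and 0.05 for one of Hspa8. Both further probe sets of Ppfia4, all dim, had the opposite sign. With each probe set tested on its own in limma, Slc44a1, Cry1, Gse1, Alg10b, Pim3, Mavs, Bfar and Ptch1 had none that passed.

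Set against the other diets, the control mean lay between the means of the 0.1% and 0.5% groups in 25 of the 26 higher genes and in 12 of the 13 lower ones. The exceptions were Gm16794, with the control above the 0.5% mean, and H2-T3, with the control above the 0.1% mean, both dim. The 1.0% mean was above the 0.1% mean in 26 of 26 higher genes and above the 0.5% mean in 7. Among the lower genes it was below the 0.1% mean in 12 of 13, with Ppfia4 the exception, and below the 0.5% mean in 3. The genes were chosen on their 0.1% and 0.5% levels, so this order is a description and no test was made of it.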

How the data were processed

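Liver RNA of 24 mice was measured on 1 array each. The authors deposited a table of linear intensity values for 45101 probe sets, while their software, background correction and probe summary are not given in the sources used. From these values, log2(value + 1) was quantile-normalized over probe sets other than the 64 controls. Platform annotation gave 34945 probe sets 1 symbol, 932 several and 9160 none. For each of 18193 genes the brightest probe set by its mean level was used. limma 3.58.1 under R 4.3.3 (lmFit, eBayes, two-sided) was fitted to all 4 groups, with the contrast of 0.5% minus 0.1%. The method was tested on simulated data. The number of arrays limits the precision.

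The genes, 30 gene lists and 12 marker lists (720 of 806 members measured) were chosen with earlier results of these data known. Named were up to 15 passing genes in each direction by p and, from each list, members that passed and the 4 with the smallest p, skipping clone names. Genes outside this rule are marked as such. Promoter sequences came from RefSeq, GRCm38.p6. Replicate numbers came from titles and did not pair mice (correlation of deviations -0.0506 to 0.0284 over 6 numbers). Alternatives were normalization, pseudocount, probe set handling, filters, fit options, blocks and left-out arrays.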

Additional observations from a re-analysis of the deposited data

Results flagged for a closer look

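Of 210 sets of 6 arrays checked, 9 had 1 array far from the others, and chance alone marks about 1 in 20. In the 0.1% group, replicate 4 was low for Pdk4 (3.92, the next array at 5.4) and Cyp8b1 (8.98, next 9.26) and high for Cyp7b1 (11.1, next 10.7). Replicate 6 was low for Lpin1 (3.76, next 4.72) and replicate 2 high for St3gal5 (6.08, next 5.74). In the 0.5% group, replicate 6 was high for Ppp1r3c (9.77, next 8.71), replicate 2 high for Sult1a1 (10.3) and replicate 3 low for Hamp (9.94, next 10.8). The 18S signal of replicate 1 of the 0.5% group was 10.9 on the log2 scale (next 6.90). Ppp1r3c and St3gal5 were among the genes that passed. All values except the 18S signal are normalized log2 levels.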

How the results depend on the processing

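The counts of genes passing in limma, 26 higher and 13 lower, depended on the processing, and the cause was not tested. They became 45 and 4 with arrays centred on their medians, 2 lower (19 higher) without normalization, 58 and 42 with a pseudocount of 16, 61 and 49 without dim genes (8766 tested), 15 and 6 with the mean of all probe sets, 42 higher (16 lower) with every probe set on its own, and 50 and 41 with trend and robust eBayes. Array weights gave 32 and 18. With the groups of 0.1% and 0.5% alone they were 5 and 2. The numbers did not pair the mice, and with the replicate block 13 and 7 passed. With replicates 1 to 3 and 4 to 6 as sets, a random effect (consensus correlation 0.0445) gave 6 and 1 and a fixed term 43 and 31. Replicates 1 to 3 alone gave 0 and 0 in limma (1157 genes at an unadjusted p under 0.05) and replicates 4 to 6 alone 9 and 3. Leaving out the 4 arrays apart on the first principal component gave 8 and 2, the 2 arrays with high 18S signal 10 and 3, and both 0.5% arrays that stood apart, chosen after seeing the data, 10 and 3. Over the 24 fits without 1 array, the counts ran from 3 to 38 higher and from 1 to 27 lower. Of the genes named, some chosen after their values were seen, such as Ghr, Stat5a and Clock, were not run under these alternatives. Among the 104 genes that were run, 4 differences changed sign in any of these fits, all in replicates 1 to 3 alone, and none of the 4 had passed: Igf1 (-0.0203), Mt1 (-0.57), Mt2 (-0.50) and Tiparp (-0.16).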
